A study of Mus musculus with 13 samples.

Results

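The 54 genes described here copy DNA, supply its building blocks or drive cells through mitosis. They form a list of cell-cycle and DNA replication genes chosen by function, with earlier results of these data known. All 54 were among the 13549 genes of a raw count table of cultured mouse oligodendrocyte-lineage cells, and all 54 passed the filter on low counts, which removed no gene. By known role they were divided into 30 S-phase genes and 24 mitotic genes. The S-phase genes were 9 of origin licensing, 11 of the replication fork, 4 of nucleotide supply and 6 grouped under control of S-phase entry. The mitotic genes were 11 that control mitotic entry and exit, and 13 of chromosomes, kinetochore and spindle. The cells came from brains of C57BL/6 mice with a conditional knockout (cKO) of Eed, or from control brains. EED is a core subunit of Polycomb repressive complex 2, which methylates histone H3 at silenced genes. Oligodendrocyte precursor cells (OPCs) grew in DMEM-Sato medium with the mitogen PDGF and with NT-3. Immature oligodendrocytes (iOLs) were taken on day 2 of differentiation, after PDGF was withdrawn and the thyroid hormone T3 given. There were 2 control OPC libraries (replicate 1 from postnatal day 7, replicate 2 from day 6), 3 Eed cKO OPC libraries (replicates 1 and 2 from day 7, replicate 3 from day 6), 2 control iOL libraries and 2 Eed cKO iOL libraries (all 4 from day 6). The genotype entry of the labels reads EED cKO for every library, so groups were taken from the titles. The driver of the deletion, the deleted exons and what the control animals carried are not given in the sources used here.

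Total counts ranged from 17417529 to 19680398 per library. Levels are given as CPM, each gene's count scaled to a common library size with TMM factors, which also correct for RNA composition. Eed, the targeted gene, was at 21.7 and 16.8 CPM in control OPCs and 13.3, 11.8 and 12.5 CPM in the cKO OPCs, then 18.0 and 21.2 CPM in control iOLs and 14.6 and 12.1 CPM in cKO iOLs. All cKO libraries lay below the control libraries of their stage, but by edgeR's test neither difference passed (adjusted p = 0.0847 in OPCs and 0.0973 in iOLs). The table does not show whether reads fell on the deleted part of the gene. The defining OPC marker Pdgfra, the PDGF receptor, stood at 3297 and 4430.1 CPM in control OPCs. The summed level of 10 OPC markers ran from 18432 to 22482 CPM in control OPCs and from 8872 to 9652 CPM in control iOLs. Of other markers, 8 of 10 microglial and 7 of 10 endothelial ones were not among the genes of the table. Genes at 0 in a library are absent from that table. The 3 endothelial markers measured summed to 15.4 to 16.9 CPM in control OPCs and 151 to 178 CPM in control iOLs, with 2 called higher. The sum of 8 pericyte and fibroblast markers was 1410 to 1471 CPM and 299 to 449 CPM, with 2 called higher and 3 lower. These 8 include Cspg4, which is also among the 10 OPC markers and had the largest fall of both lists (log2 fold change -4.04). That sum is therefore not one of pericyte and fibroblast genes alone. The control OPC libraries differed in the summed level of 9 oligodendrocyte markers (2139 and 6480 CPM) and of 10 astrocyte markers (3759 and 10213 CPM), against 1003 to 2749 CPM and 3260 to 8163 CPM in cKO OPCs. In control iOLs the oligodendrocyte markers stood at 5208 to 5273 CPM, with a median log2 fold change over control OPCs of -0.22 (2 rose and 2 fell). The part of these cell types in the comparisons that use OPC libraries was not tested. The labels do not say that replicates came from separate animals or cultures, so p-values measure the spread between these libraries, which may be technical.

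A dividing cell loads MCM helicases onto replication origins in G1, fires those origins in S phase and then separates the copied chromosomes in mitosis. Transcription follows this order: E2F factors switch on S-phase genes at the entry to S phase, and a later wave of mitotic genes is driven by the MuvB complex with B-MYB (Mybl2) and FOXM1 through promoter elements called CHR, near CCAAT boxes bound by NF-Y. OPCs divide in response to PDGF, and leave the cell cycle as they differentiate into myelinating oligodendrocytes.

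The change from control OPCs to control iOLs shows how far these genes fall when normal precursors differentiate. By edgeR's quasi-likelihood test, 50 of the 54 genes fell and 0 rose with p-values adjusted over the whole table (Benjamini-Hochberg) and called under 0.05, where 25.3% of all genes fell and 21.0% rose. The counts at an unadjusted p under 0.05 were 51 lower and 0 higher (28.9% and 24.8% of all genes), and DESeq2 called 51 lower and 0 higher (25% and 22.4% of all genes). Their median log2 fold change was -1.45, against -0.059 over all genes. The median gene kept 36.6% of its OPC level. In bulk RNA, fewer dividing cells and less of these RNAs per dividing cell cannot be told apart. Values after ± are standard errors of the log2 fold change.

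**Figure D1:**
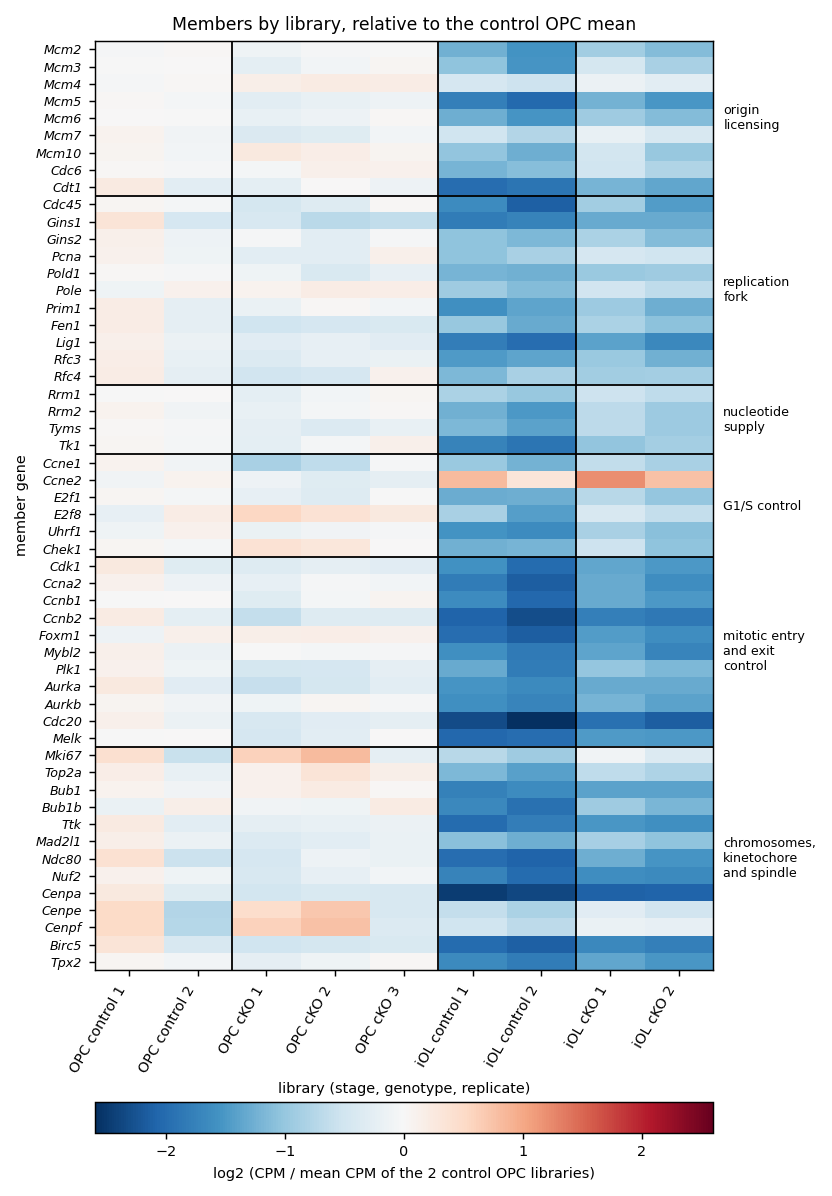
Level of each of the 54 genes (rows, by role) in each of the 9 libraries (columns), as log2 of its CPM over the mean of the 2 control OPC libraries; blue is lower and red higher. The iOL columns are blue in nearly every row, paler in Eed cKO than in control, while Ccne2 is red there and Mki67, Cenpe and Cenpf vary among the OPC columns.

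All 9 origin licensing genes fell in control cells, with log2 fold changes from -1.94 to -0.49. Of all genes 25.3% fell, the share to set beside this count and the counts by role that follow. Mcm6, a subunit of the MCM helicase ring, measured 134 and 132 CPM in control OPCs and 55.2 and 46.1 CPM in control iOLs, a log2 fold change of -1.39 ± 0.14 (adjusted p = 6.37e-05). Mcm2, another subunit of the ring, went from 109 and 115 CPM to 47.1 and 37.9 CPM (-1.39 ± 0.14, adjusted p = 6.11e-05). Mcm6 and Mcm2 thus kept 38.1% and 38.0% of their OPC level. Mcm7 fell less, from 116 and 103 CPM to 76.6 and 65.1 CPM, and kept 64.6% (-0.63 ± 0.15, adjusted p = 0.00754). Subunits of the same ring therefore fell by different amounts: Mcm5 kept 27.0% of its OPC level and Mcm4 71.3%. Cdt1, which loads the ring onto DNA, had the largest fall of the 9, to 26.01% of its OPC level (-1.94 ± 0.20, adjusted p = 7.79e-05).

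All 11 replication fork genes fell as well, with log2 fold changes from -1.89 to -0.94. Pcna, the sliding clamp of DNA polymerases, measured 118 and 102 CPM in control OPCs and 53.4 and 61.1 CPM in control iOLs (-0.94 ± 0.16, adjusted p = 0.00153). Lig1, which seals the fragments of the lagging strand, went from 139.7 and 115 CPM to 36.7 and 32.2 CPM (-1.89 ± 0.15, adjusted p = 1.8e-05). Lig1 kept 27.1% of its OPC level and Pcna 52.1%. Pold1, the catalytic subunit of DNA polymerase delta, measured 55.3 and 53.7 CPM in OPCs and 23.7 and 23.0 CPM in iOLs (-1.22 ± 0.13, adjusted p = 9.77e-05). In each of the 3, the iOL libraries lay below every OPC library of the same genotype. Of all 13549 genes, 5095 did so in control and 4699 in cKO cells.

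All 4 genes of nucleotide supply fell. Rrm1, the large subunit of ribonucleotide reductase, went from 169.6 and 174 CPM to 97.5 and 87.1 CPM (-0.90 ± 0.13, adjusted p = 0.00055). Its partner subunit Rrm2, whose protein is made in S phase, went from 112 and 99.3 CPM to 44.4 and 37.5 CPM (-1.37 ± 0.15, adjusted p = 9.87e-05). The partners of this enzyme differed in what was left, 53.7% for Rrm1 and 38.7% for Rrm2. Tyms, thymidylate synthase, measured 29.2 and 27.8 CPM in OPCs and 12.7 and 10.9 CPM in iOLs (-1.28 ± 0.16, adjusted p = 0.00022), and Tk1, the salvage enzyme thymidine kinase, fell furthest of the 4, to 28.4% of its OPC level (-1.82 ± 0.17, adjusted p = 5.36e-05).

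Of the 6 genes grouped under control of S-phase entry, 5 fell. That name labels the group, which also holds Uhrf1 and Chek1, and does not state what each gene does. Uhrf1, which brings the maintenance DNA methyltransferase to copied DNA, went from 82.9 and 97.2 CPM to 30.6 and 29.1 CPM (-1.59 ± 0.14, adjusted p = 2.7e-05). E2f8, a repressor of the E2F family, went from 16.1 and 21.2 CPM to 10.4 and 6.88 CPM (-1.11 ± 0.23, adjusted p = 0.00359). The cyclin E genes, whose products activate CDK2, went opposite ways. Ccne1 measured 21.0 and 18.4 CPM in control OPCs and 10.1 and 8.38 CPM in control iOLs (-1.09 ± 0.26, adjusted p = 0.00848). Ccne2 measured 3.05 and 3.47 CPM in control OPCs and 5.79 and 4.05 CPM in control iOLs, the only one of the 54 genes with a log2 fold change above 0, where 46.5% of all genes were (0.59 ± 0.27, adjusted p = 0.0986, not passed). Ccne2 had the lowest counts of the 54, down to 49 in a library.

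All 11 genes of mitotic entry and exit fell, with log2 fold changes from -2.47 to -1.54. Cdc20, an activator of the anaphase-promoting complex, had the largest fall of the 54, from 98.7 and 81.1 CPM to 17.9 and 14.5 CPM (-2.47 ± 0.16, adjusted p = 8.23e-06), and kept 18.0%. Ccnb2, a mitotic cyclin, went from 56.6 and 40.6 CPM to 11.4 and 9.77 CPM (-2.20 ± 0.20, adjusted p = 3.59e-05). Foxm1, the activator of mitotic genes, went from 101 and 121 CPM to 28.0 and 24.98 CPM (-2.06 ± 0.13, adjusted p = 7.09e-06). Ccnb2 kept 21.8% and Foxm1 23.9% of the OPC level. In all 3 genes the stages did not overlap, as in 5095 of all 13549 genes with iOLs the lower in control cells. Ccna2, a cyclin of S phase and mitotic entry, went from 129 and 108 CPM to 33.6 and 27.0 CPM (-1.97 ± 0.17, adjusted p = 2.43e-05). Cdk1, the mitotic kinase, went from 104 and 70.8 CPM to 29.5 and 22.0 CPM (-1.77 ± 0.20, adjusted p = 0.000137). For Cdk1 the control OPC libraries themselves differed, with the day 7 library the higher.

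Of the 13 genes of chromosomes, kinetochore and spindle, 10 fell. Cenpa, the centromeric histone, went from 102 and 69.2 CPM to 15.6 and 16.5 CPM (-2.41 ± 0.18, adjusted p = 1.44e-05). Top2a, which untangles copied chromosomes, went from 253 and 195 CPM to 99.2 and 84.5 CPM (-1.29 ± 0.16, adjusted p = 0.000217). Tpx2, a spindle assembly factor, went from 134 and 124 CPM to 40.7 and 36.4 CPM (-1.74 ± 0.14, adjusted p = 1.7e-05). What was left in iOLs therefore ran from 18.7% for Cenpa to 41.0% for Top2a among these. The 3 that did not pass were Mki67, which coats mitotic chromosomes and is the usual marker of dividing cells, and Cenpe and Cenpf, both of the outer kinetochore.

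Mki67 measured 251 and 126 CPM in control OPCs and 286, 335 and 161 CPM in cKO OPCs, against 114 and 99.6 CPM in control iOLs and 176 and 146 CPM in cKO iOLs. The 3 high OPC libraries were those of postnatal day 7 and the 2 low ones those of day 6, in both genotypes. Cenpe showed the same split, with 39.5 and 16.5 CPM in control OPCs and 38.7, 45.5 and 20.9 CPM in cKO OPCs, against 18.1 and 15.8 CPM in control iOLs. So did Cenpf, with 80.6 and 34.2 CPM and 87.1, 97.9 and 44.9 CPM in OPCs, against 40.3 and 36.0 CPM in control iOLs. The day 7 mean was 2.03 times the day 6 mean for Mki67, 2.21 times for Cenpe and 2.24 times for Cenpf. The log2 fold changes on differentiation in control cells were -0.82 ± 0.36 for Mki67 (adjusted p = 0.0915), -0.72 ± 0.42 for Cenpe (0.188) and -0.59 ± 0.41 for Cenpf (0.266). The next ratio among the 54 was 1.28, for Gins1, a subunit of the active helicase, whose day 7 and day 6 libraries overlapped. Across the 54, 6 genes were higher and 7 lower in every day 7 than in every day 6 OPC library, where 17.7% and 18.2% of all genes were. All iOL libraries came from day 6, so for OPCs of day 7 the postnatal day and the stage move together.

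The same change in Eed cKO cells shows how far these genes fell in that genotype. By edgeR's test 47 of the 54 fell and 1 rose, where 21.8% of all genes fell and 18.5% rose. The median log2 fold change was -0.90, against -0.0046 over all genes, and the median gene kept 53.4% of its cKO OPC level. The 47 were all among the 50 that fell in control cells. Cdc20 again had the largest fall, from 67.4, 73.6 and 76.0 CPM in cKO OPCs to 23.5 and 20.3 CPM in cKO iOLs (-1.72 ± 0.15, adjusted p = 3.29e-05). Foxm1 went from 124, 125 and 119.7 CPM to 40.5 and 36.0 CPM (-1.68 ± 0.12, adjusted p = 1.37e-05), and Cenpa from 61.6, 65.4 and 64.6 CPM to 20.1 and 20.4 CPM (-1.66 ± 0.17, adjusted p = 7.76e-05). All 3 are mitotic genes, and their stages did not overlap, as in 4699 of all 13549 genes with iOLs the lower in cKO cells. Ccne2 was the gene that rose, from 2.98, 2.64 and 2.79 CPM in cKO OPCs to 7.50 and 5.55 CPM in cKO iOLs, 2.33-fold (1.22 ± 0.24, adjusted p = 0.0032). It stayed called under every alternative run.

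The genes that fell in control but did not pass in cKO cells were Mcm7, Pcna and Ccne1. Mcm7 measured 85.0, 88.1 and 104 CPM in the cKO OPCs and 96.5 and 82.0 CPM in cKO iOLs, and the groups overlapped (-0.049 ± 0.14, adjusted p = 0.801). Pcna measured 91.5, 90.6 and 121 CPM and 81.3 and 76.5 CPM (-0.36 ± 0.15, adjusted p = 0.087), and Ccne1 11.0, 12.4 and 19.3 CPM and 12.7 and 11.0 CPM (-0.27 ± 0.24, adjusted p = 0.405). These are each of the S-phase group. Mki67, Cenpe and Cenpf did not pass here either, at -0.70 ± 0.34, -0.71 ± 0.39 and -0.61 ± 0.37. Of the 48 calls, 32 held in every alternative. Without cKO iOL replicate 2 there were 31 lower and 1 higher, where 22.7% of all genes were called in either direction, and the call of Rrm1 (-0.51 ± 0.12, adjusted p = 0.00865) was among those lost.

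Among the S-phase genes, the share of the OPC level left in iOLs is given here for both genotypes, and the difference of falls is tested further on. Mcm6 went from 116, 122 and 137 CPM in cKO OPCs to 70.1 and 60.9 CPM in cKO iOLs, or 52.5% left against 38.1% in control. Mcm2 went from 103, 109 and 111 CPM to 59.4 and 51.0 CPM, or 51.3% against 38.0%. Both falls within cKO cells passed (adjusted p = 0.000431 for Mcm6 and 0.000344 for Mcm2), and the difference from control did not (adjusted p = 0.225 and 0.252). Lig1 went from 104, 109.5 and 104 CPM to 48.5 and 39.8 CPM, or 41.7% against 27.1%. Pold1 went from 50.7, 41.6 and 46.8 CPM to 27.8 and 28.6 CPM, or 60.9% against 42.9%. Rrm1 went from 144, 163 and 178 CPM to 119 and 108 CPM, or 70.3% against 53.7%. Fork and nucleotide genes thus showed the same order as the licensing genes. Tyms went from 24.1, 22.3 and 25.03 CPM to 17.8 and 14.8 CPM, or 68.4% against 41.3%, and E2f8 from 26.9, 24.2 and 22.2 CPM to 13.9 and 12.1 CPM, or 53.3% against 46.4%.

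Among the mitotic genes, Cdk1 went from 69.1, 74.4 and 71.3 CPM in cKO OPCs to 34.4 and 31.2 CPM in cKO iOLs, or 45.9% left against 29.4% in control. Ccna2 went from 103, 116 and 113 CPM to 47.9 and 38.5 CPM, or 39.1% against 25.5%. Top2a went from 244, 283 and 248 CPM to 141 and 129 CPM, or 52.2% against 41.0%. Cdc20 kept less than each of these 3 in both genotypes, 30.3% against 18.0%. Tpx2 went from 109, 120.0 and 132 CPM to 50.8 and 45.0 CPM, or 39.8% against 29.9%. Ccnb2 went from 31.8, 38.7 and 38.6 CPM to 14.2 and 13.5 CPM, or 38.0% against 21.8%.

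**Figure D2:**
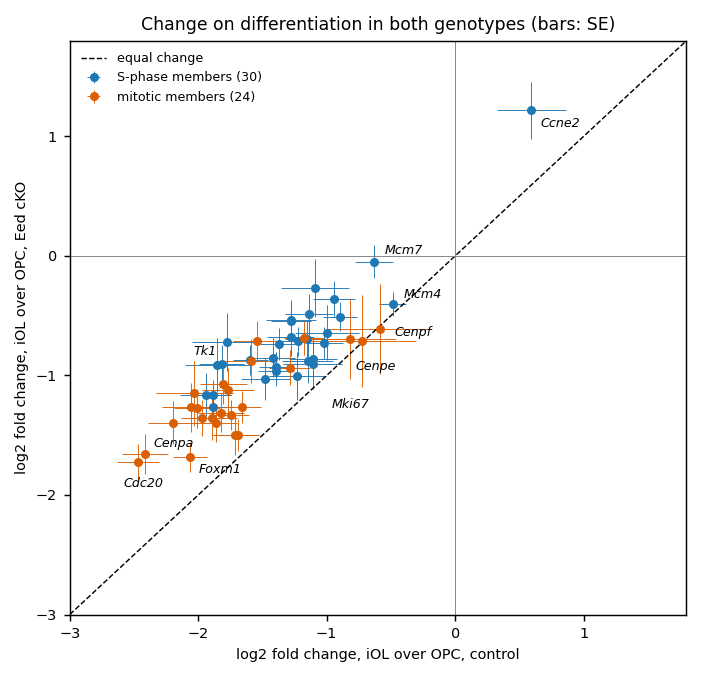
Log2 fold change of iOLs over OPCs for each of the 54 genes in control (horizontal) and Eed cKO cells (vertical), with bars of 1 standard error; the dashed line marks equal change. All genes but Cenpf lie above the line, Ccne2 alone lies above 0 on both axes, and Cdc20 and Cenpa lie farthest to the lower left.

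Whether the fall itself differed between genotypes was tested as the difference of the log2 fold changes, cKO minus control. By edgeR's test 0 of the 54 genes passed, where 1.83% of all genes did in either direction (0.945% above and 0.886% below 0). At an unadjusted p under 0.05 there were 31 above 0 and 0 below, where 9.08% and 9.19% of all genes were, and DESeq2 called 3 above 0 (2.69% of all genes). The difference was above 0 for 53 of the 54, where 56.0% of all genes were above 0, and its median was 0.58, against 0.067 over all genes. These signs restate the shares left and are no separate result. The smallest p-values were those of Uhrf1, Tk1 and Mcm5. Uhrf1 went from 80.1, 84.9 and 88.8 CPM in cKO OPCs to 50.02 and 42.5 CPM in cKO iOLs and kept 54.7% against 33.1% in control, a difference of 0.72 ± 0.18 (adjusted p = 0.0796). Tk1 went from 25.7 and 24.2 CPM to 7.44 and 6.72 CPM in control and from 20.9, 23.9 and 27.3 CPM to 12.2 and 13.5 CPM in cKO cells, a difference of 0.91 ± 0.23 (adjusted p = 0.082). Mcm5 went from 128 and 121 CPM to 36.5 and 30.9 CPM in control and from 103, 109 and 114 CPM to 53.3 and 43.8 CPM in cKO cells, a difference of 0.73 ± 0.18 (adjusted p = 0.0845). All 3 are of the S-phase group, and none passed. The count rested on the OPC libraries: it was 18 without control OPC replicate 2 (15.9% of all genes called), 6 without cKO OPC replicate 3 (9.43%) and 1 without control OPC replicate 1 (2.79%). With postnatal day as a term it was 8, where 8.87% of all genes were called in either direction, and with the replicate number as a block 5, where 7.74% were. With the day 6 libraries alone it was 0, where 3.07% of all genes were called, with a median of 0.36.

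S-phase and mitotic genes fell to different extents in both genotypes. In control cells 29 of 30 S-phase genes fell, with a median log2 fold change of -1.25 and 42.0% of the OPC level left. Of the mitotic genes 21 of 24 fell, with a median of -1.79 and 29.0% left. In cKO cells 26 of 30 S-phase genes fell, with a median of -0.73 and 60.1% left. There 21 of 24 mitotic genes fell, with a median of -1.27 and 41.4% left. Of all genes, 25.3% fell in control cells and 21.8% in cKO cells. The mean log2 CPM over the S-phase genes minus that over the mitotic genes was -0.61 and -0.34 in control OPCs and -0.50, -0.60 and -0.40 in cKO OPCs. It was -0.048 and -0.018 in control iOLs and 0.033 and -0.049 in cKO iOLs. Gene lengths enter these levels, so only their shifts between libraries compare the sets. All 5 OPC libraries lay below all 4 iOL libraries, and the shift from OPCs to iOLs was 0.44 in control and 0.49 in cKO cells. With the median over genes in place of the mean, the shifts were smaller, 0.21 and 0.20. No test was run on these scores, since the genes were chosen with results of these data known.

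**Figure D3:**
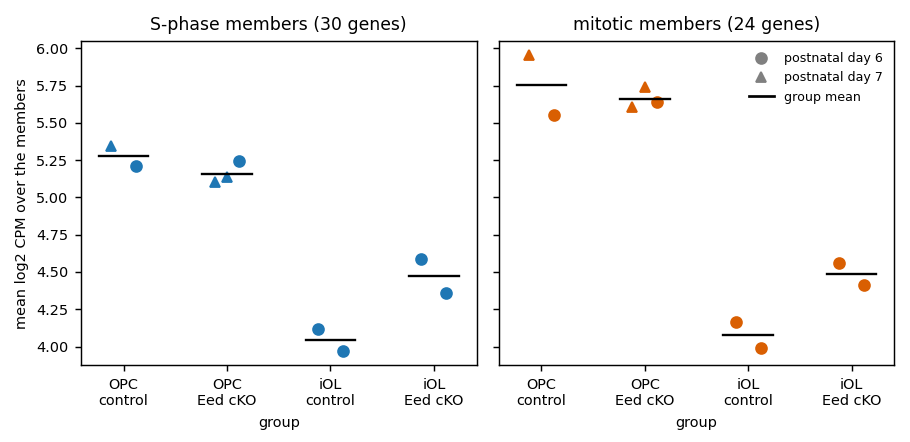
Mean log2 CPM over the 30 S-phase genes (left) and the 24 mitotic genes (right) in each library, by group; circles are libraries of postnatal day 6, triangles those of day 7, and lines group means. Both sets are lower in iOLs than in OPCs, and the cKO iOL libraries lie above the control iOL libraries in both.

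Promoters were examined because S-phase and mitotic genes are known to be read through different elements. RefSeq promoter sequences (GRCm38.p6, from 250 bases before to 50 after the start of transcription) were matched by symbol for 45 of the 54 genes, 25 S-phase and 20 mitotic. Not matched were Mcm4, Gins1, Gins2, Pole, Ccne2, Ccna2, Foxm1, Aurkb and Tpx2. The E2F core was searched on both strands as TTCCCGC, or else TTCGCGC, or else TTGCCGC, or else TTGGCGC. CHR was searched as TTTGAA or else TTCGAA, and the NF-Y box as CCAAT, again on both strands. The E2F letters TTGGCGC overlap a CCAAT box where an A precedes them, and TTGGCGCGAA holds 2 overlapping E2F matches, one on each strand. The following are the 150 bases before the start of 5 genes, in lower case with matches in capitals, each read 5′ to 3′ on the strand of its gene. Mcm6 and Rrm1 stand for E2F matches in S-phase genes, Cdc20 and Top2a for CHR and CCAAT matches in mitotic genes, and Cdk1 holds all 3 kinds.
Mcm6: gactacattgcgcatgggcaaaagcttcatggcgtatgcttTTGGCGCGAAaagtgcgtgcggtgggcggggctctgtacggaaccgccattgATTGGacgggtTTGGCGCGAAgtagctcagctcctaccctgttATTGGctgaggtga
Rrm1: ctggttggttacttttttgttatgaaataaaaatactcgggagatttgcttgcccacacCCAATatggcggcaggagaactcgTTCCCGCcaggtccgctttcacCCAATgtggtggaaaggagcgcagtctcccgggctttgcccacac
Cdk1: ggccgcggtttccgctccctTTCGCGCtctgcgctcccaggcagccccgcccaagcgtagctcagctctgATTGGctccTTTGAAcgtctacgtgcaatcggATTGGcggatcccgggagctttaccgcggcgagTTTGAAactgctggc
Cdc20: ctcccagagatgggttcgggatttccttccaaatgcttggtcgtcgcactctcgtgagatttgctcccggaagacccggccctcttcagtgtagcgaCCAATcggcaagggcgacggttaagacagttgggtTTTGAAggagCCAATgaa
Top2a: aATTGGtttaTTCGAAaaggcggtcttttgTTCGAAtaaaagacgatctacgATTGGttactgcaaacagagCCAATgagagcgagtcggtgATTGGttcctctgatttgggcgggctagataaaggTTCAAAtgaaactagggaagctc
They lie at chr1:128359706-128359855 (minus strand) for Mcm6, chr7:102441545-102441694 (plus strand) for Rrm1, chr10:69352913-69353062 (minus strand) for Cdk1, chr4:118437344-118437493 (minus strand) for Cdc20 and chr11:99024190-99024339 (minus strand) for Top2a.

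An E2F core match was present in 15 of the 25 S-phase promoters, 60% (exact binomial 95% interval 38.7 to 78.9%), and in 3 of the 20 mitotic promoters, 15% (3.21 to 37.9%). Such a match was held by 9.69% of all 27025 RefSeq promoters and by 17.5% of the 10589 promoters of genes that were counted. A CHR match was present in 24% of S-phase promoters (9.36 to 45.1%) and in 13 of 20 mitotic promoters, 65% (40.8 to 84.6%), against 19.4% of all promoters and 13.0% of those of genes in the count table. E2F letters were thus more frequent in the S-phase and CHR letters in the mitotic genes, though the CHR intervals overlap. CCAAT was present in 56% of S-phase (34.9 to 75.6%) and 70% of mitotic promoters (45.7 to 88.1%), against 37.9% of all promoters and 38.7% of those of genes in the count table, a share within the S-phase interval. CHR and CCAAT together were present in 60% of mitotic and 20% of S-phase promoters, against 5.61% of those of genes in the count table. These shares describe letters in a window and not sites bound in these cells. With a further T required before the E2F core, a match was present in 32% of S-phase (14.9 to 53.5%) and 5% of mitotic promoters (0.127 to 24.9%), intervals that overlap, against 4.16% of those of genes in the count table.

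**Figure D4:**
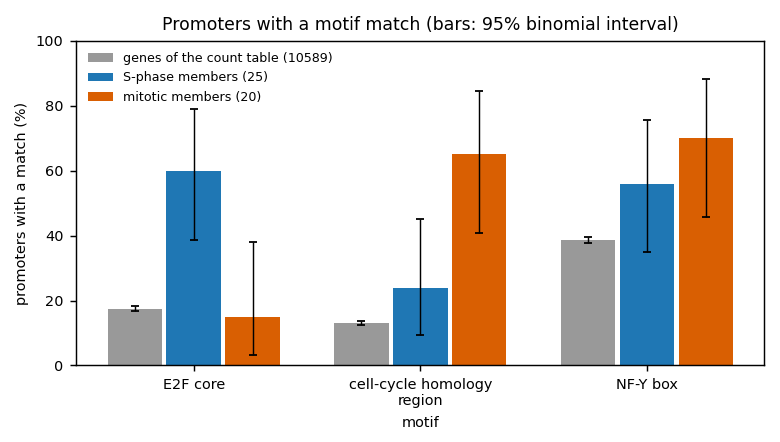
Share of promoters (vertical axis, %) with at least 1 match to the E2F core, the cell-cycle homology region (CHR) and the NF-Y box (CCAAT), for genes of the count table (grey), S-phase genes (blue) and mitotic genes (orange), with exact 95% binomial intervals. The S-phase bar is highest for E2F at 60% and the mitotic bar for CHR at 65%.

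A comparison of Eed cKO with control iOLs shows whether these genes differ after 2 days of differentiation. By edgeR's test 6 of the 54 genes were higher in cKO iOLs and 0 lower, where 7.08% of all genes were higher and 3.51% lower. The share called, 6 of 54, is near that background. The log2 fold change was above 0 for 54 of the 54 genes, where 49.5% of all genes were above 0, with a median of 0.40, against -0.0036 over all genes. Both cKO libraries lay above both control libraries for 49 of the 54 and below for 0, where 33.6% and 34.3% of all genes did. At an unadjusted p under 0.05, 28 were higher and 0 lower, where 14.6% and 8.61% of all genes were, and DESeq2 called 10 higher (8.87% of all genes). This comparison shares its control libraries with the fall in control cells described above.

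The 6 genes came from 5 of the 6 roles. Tk1 measured 7.44 and 6.72 CPM in control iOLs and 12.2 and 13.5 CPM in cKO iOLs, 1.82-fold (0.86 ± 0.17, adjusted p = 0.0142). Bub1b, a spindle checkpoint kinase, measured 18.0 and 15.2 CPM and 30.4 and 25.4 CPM, 1.68-fold (0.75 ± 0.18, adjusted p = 0.0303). Uhrf1 measured 30.6 and 29.1 CPM and 50.02 and 42.5 CPM, 1.55-fold (0.63 ± 0.13, adjusted p = 0.0174). In each, both cKO libraries were above both control libraries and well below the OPC level, which for Bub1b was 51.5 and 64.3 CPM in control and 54.6, 53.7 and 67.3 CPM in cKO cells. Rrm2 measured 44.4 and 37.5 CPM and 66.2 and 55.1 CPM in iOLs, after 92.5, 103 and 109 CPM in cKO OPCs (0.57 ± 0.15, adjusted p = 0.0382). Foxm1 differed by 0.53 ± 0.13 (adjusted p = 0.0316) and Mcm5 by 0.53 ± 0.14 (adjusted p = 0.0395). These 3 showed the same order of libraries.

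By role, the median log2 fold change was 0.43 for the 9 licensing genes (1 higher) and 0.36 for the 11 fork genes (0 higher). It was 0.52 for the 4 nucleotide genes (2 higher) and 0.44 for the 6 genes of the S-phase entry group (1 higher). It was 0.42 for the 11 genes of mitotic entry and exit (1 higher) and 0.34 for the 13 of chromosomes, kinetochore and spindle (1 higher). The median was 0.43 over S-phase and 0.37 over mitotic genes, and the shift of S-phase against mitotic level was 0.025. Top2a, next below the threshold, was at 0.56 ± 0.16 (adjusted p = 0.0548), and at the low end Rfc4, a subunit of the clamp loader, was at 0.11 ± 0.25 (adjusted p = 0.867).

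These 6 calls rested on few libraries. Without control iOL replicate 1, control iOL replicate 2 or cKO iOL replicate 1 there were 0 calls, and 2.58%, 3.63% and 3.38% of all genes were called in either direction. Without cKO iOL replicate 2 there was 1 (3.92% of all genes), and without cKO OPC replicates 1 or 2, which enter the shared estimate of spread, 2 (8.13%) and 3 (8.08%). Without either control OPC library there were 11 (16.5%). With the day 6 libraries alone there were 27, where 27.5% of all genes were called in either direction. The summed level of 10 astrocyte markers was also higher in cKO iOLs (9706 to 11688 CPM, against 6867 to 6997 CPM in control iOLs), though 0 of the 10 were called higher and 1 lower. The summed level of 9 oligodendrocyte markers was lower (1368 to 1979 CPM, against 5208 to 5273 CPM), with 3 called lower, and that of 10 OPC markers was lower (5987 to 6174 CPM, against 8872 to 9652 CPM), with 3 called lower and 1 higher. That of 10 neuronal markers was 318 to 351 CPM against 199 to 210.1 CPM, with 3 called higher. The part of these cell types in the result was not tested.

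**Figure D5:**
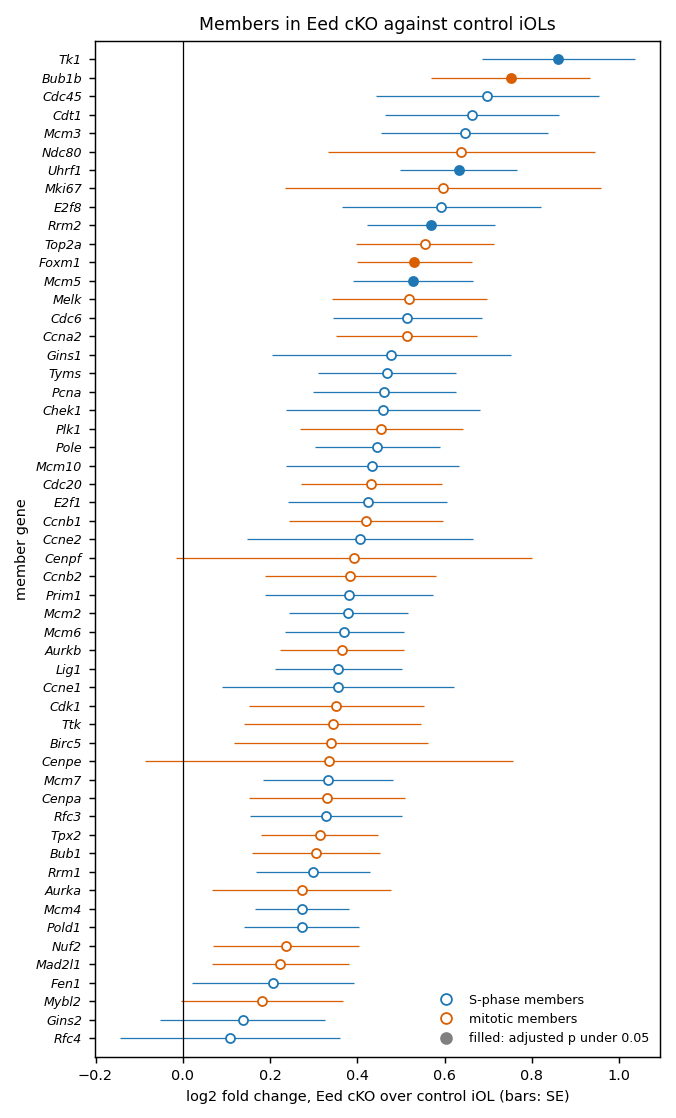
Log2 fold change of Eed cKO over control iOLs for each of the 54 genes, sorted, with bars of 1 standard error; blue marks S-phase and orange mitotic genes, and filled points passed the adjusted p threshold. All 54 points lie above 0, and 6 are filled.

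A comparison of Eed cKO with control OPCs shows whether these genes differ while the cells proliferate. By edgeR's test 0 of the 54 genes passed, where 3.25% of all genes did (2.94% higher and 0.303% lower). At an unadjusted p under 0.05, 8 were lower and 0 higher, where 12.5% and 13.2% of all genes were, and DESeq2 called 0 (5.66% of all genes higher and 1.76% lower). The log2 fold change was below 0 for 41 of the 54, where 52.7% of all genes were below 0, with a median of -0.11, against -0.023 over all genes. The cKO libraries all lay below the control libraries for 11 genes and above for 2, where 17.4% and 16.9% of all genes did. The smallest p-values were those of Cenpa, Fen1 and Gins1. Cenpa measured 102 and 69.2 CPM in control and 61.6, 65.4 and 64.6 CPM in cKO OPCs (-0.43 ± 0.15, adjusted p = 0.142). Fen1, the flap nuclease of lagging-strand maturation, measured 46.6 and 34.5 CPM and 28.5, 30.2 and 30.8 CPM (-0.44 ± 0.16, adjusted p = 0.147). Gins1 measured 17.0 and 9.84 CPM and 10.04, 8.29 and 8.62 CPM (-0.58 ± 0.23, adjusted p = 0.164). In Cenpa and Fen1 the cKO libraries lay together, and the control libraries differed from each other by more than the cKO libraries did.

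The sign of the median difference was not the same at both postnatal days, each of which holds 1 control library, so day and library cannot be told apart. Within day 7, with 1 control and 2 cKO libraries, the median difference in log2 CPM was -0.27 and 42 of the 54 genes were below 0. Over all 13549 genes the day 7 median was -0.0072, with 6830 below 0. Within day 6, with 1 library each, the median difference was 0.055 and 38 of the 54 were above 0. Over all genes the day 6 median was -0.012, with 6332 above 0. Control OPCs of day 7 lay above those of day 6 for 42 genes, with a median of 0.18. The cKO OPCs of day 7 lay below those of day 6 for 38, with a median of -0.094. Over all genes the control median was 0.027, with 7070 above 0, and the cKO median 0.0044, with 6706 below 0. In a fit of the day 6 libraries alone, whose spread comes from the iOL pairs, 0 of the 54 were called, where 0.487% of all genes were, and 3 passed at an unadjusted p under 0.05. Without control OPC replicate 2, the day 6 library, 9 genes were called lower, where 29% of all genes were called in either direction, and without cKO OPC replicate 3 there was 1, where 15.8% were.

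On differentiation most genes lay below 0 whichever day the OPCs came from. Against OPCs of day 6 alone, the median log2 change was -1.31 in control and -0.97 in cKO cells, with 51 of the 54 genes below 0 in each. Over all 13549 genes these medians were -0.0065 and -0.0018, with 6825 and 6794 below 0. Besides Ccne2, the genes above 0 against day 6 were Cenpe (0.037 and 0.032) and Cenpf (0.15 and 0.16) in control and cKO cells. Mki67 lay just below 0 there, at -0.24 in control and -0.0080 in cKO cells, so its larger falls given above rest on the day 7 OPCs. Against OPCs of day 7 the median was -1.53 and -0.94, with 53 and 51 of the 54 below 0. All 24 mitotic genes, Cenpe and Cenpf included, were then below 0 in both genotypes. Over all genes the medians against day 7 were -0.075 and -0.0024, with 7254 and 6806 below 0. Within day 6 the median difference between the falls was 0.36 by edgeR's fit.

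Other genes of the cycle were taken from lists written with earlier results of these data known. Of 50 other replication genes, 35 fell in control cells, with a median log2 fold change of -0.75, and 24 fell and 1 rose in cKO cells, with a median of -0.44. The largest fall in control cells was that of Dscc1, of the cohesion clamp loader (-2.48 ± 0.36, adjusted p = 0.000573). Of 74 other mitotic genes, 65 fell in control cells, with a median of -1.51, and 60 fell in cKO cells, with a median of -1.13. Ska1, of the kinetochore (-3.18 ± 0.34, adjusted p = 9.52e-05), and Cdc25c, the phosphatase that activates CDK1 (-3.13 ± 0.22, adjusted p = 1.02e-05), fell furthest. By median, the order of the 2 lists was that of the 54 genes, mitotic below replication. Lists written this way give no separate support for that order. In control cells 6 of the 50 replication and 1 of the 74 mitotic genes had log2 fold changes above 0, where 46.5% of all genes did. In control cells 25.3% and in cKO cells 21.8% of all genes fell. In cKO against control iOLs, where 7.08% of all genes were higher, 2 of 50 replication genes were, Cdca7 (0.97 ± 0.18, adjusted p = 0.00879) and Ung, which removes uracil from DNA (0.89 ± 0.20, adjusted p = 0.0248). Of 74 mitotic genes 8 were higher, the largest being Cdc25b, a CDK phosphatase (0.69 ± 0.15, adjusted p = 0.0181). Of 17 alternatives these calls held in 14 for Cdca7 and Cdc25b and 13 for Ung, and each was lost without either control iOL library or without cKO iOL replicate 1.

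Upstream of S phase, of 13 genes of G1 cyclins, their kinases and Myc factors, 7 fell and 1 rose in control cells, and 4 fell and 1 rose in cKO cells. Of all genes, 25.3% fell and 21.0% rose in control cells, and 21.8% fell and 18.5% rose in cKO cells. Ccnd1, cyclin D1, which starts the passage through G1, measured 365 and 315 CPM in control and 408, 465 and 449.9 CPM in cKO OPCs, against 52.8 and 54.1 CPM in control and 131 and 151 CPM in cKO iOLs. It fell in both genotypes (-2.67 ± 0.14 and -1.64 ± 0.13) and was higher in cKO iOLs (1.40 ± 0.14, adjusted p = 0.00071), a call that held in every alternative. Ccnd2, cyclin D2, measured 229 and 186 CPM in control and 448 and 436 CPM in cKO iOLs (1.09 ± 0.27, adjusted p = 0.0305). Mycn measured 8.46 and 8.77 CPM and 20.3 and 15.2 CPM (1.04 ± 0.18, adjusted p = 0.00806), whereas its relative Mycl was lower, at 82.5 and 82.2 CPM and 30.8 and 42.8 CPM (-1.16 ± 0.19, adjusted p = 0.00552). In all, 4 of the 13 were higher, the other being Cdk6 (0.60 ± 0.15, adjusted p = 0.0323), and 1 was lower, where 7.08% of all genes were higher and 3.51% lower. Cdk6 was also higher in cKO OPCs (0.84 ± 0.14, adjusted p = 0.0126), a call that held in 12 of 17 alternatives. The iOL calls held in 16 of 17 alternatives for Mycl, 14 for Mycn, 13 for Ccnd2 and 12 for Cdk6, and all 4 were lost without cKO iOL replicate 1, the last 3 also without either control iOL library. Myc rose on differentiation, from 32.2 and 31.6 CPM to 129.9 and 108 CPM in control cells (1.90 ± 0.14, adjusted p = 1.31e-05), while Cdk2, the partner of cyclin E, fell (-1.59 ± 0.15, adjusted p = 4.3e-05). Of 17 genes of pocket proteins, E2F and MuvB, which relay the G1 signal to these promoters, 5 fell and 1 rose in control cells. The same numbers did in cKO cells, against the shares of all genes given above for each genotype. In cKO iOLs 1 was higher, E2f7, a repressor like E2f8 (0.71 ± 0.17, adjusted p = 0.0311), a call that held in 11 of 17 alternatives and in none that left out an iOL library.

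Of 7 CDK inhibitor genes, whose products hold cells in G1, 3 were higher in cKO OPCs and 3 in cKO iOLs, where 2.94% and 7.08% of all genes were. Cdkn2a, which encodes p16 and p19ARF, had 9 and 2 counts in control OPCs and 405, 380 and 373 counts in cKO OPCs, and 1 and 1 counts in control iOLs and 228 and 260 counts in cKO iOLs. Its neighbour Cdkn2b measured 0.879 and 0.421 CPM and 5.64, 7.16 and 4.64 CPM in OPCs, and 0.795 and 0.888 CPM and 4.42 and 5.29 CPM in iOLs (adjusted p = 0.00163 and 0.00331). Cdkn1a, which encodes p21, measured 7.62 and 5.05 CPM and 40.9, 38.7 and 39.3 CPM in OPCs (adjusted p = 0.000967), and 41.1 and 72.5 CPM and 82.1 and 100.5 CPM in iOLs (adjusted p = 0.137). In OPCs these 3 inhibitors were therefore higher in each cKO library than in any control library. Cdkn2c, which encodes p18, fell on differentiation in both genotypes. It measured 58.8 and 48.7 CPM in control and 52.3, 52.1 and 54.6 CPM in the cKO OPCs, then 16.4 and 12.2 CPM and 26.3 and 22.2 CPM in iOLs, and was higher in cKO than in control iOLs (0.76 ± 0.17, adjusted p = 0.0238), a call lost without control iOL replicate 2 or either cKO iOL library. Cdkn1c rose in control cells (1.42 ± 0.32, adjusted p = 0.00582), and Cdkn1b and Cdkn2d passed in no comparison.

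Further lists cover the response to mitogens and the exit from the cycle. Of 12 mitogen response genes, 8 fell in control and 7 in cKO cells, where 25.3% and 21.8% of all genes fell. Pdgfra went to 597 and 497 CPM in control and 821 and 635 CPM in cKO iOLs, and Etv4, a transcription factor induced by growth factor signalling, from 216 and 202 CPM to 12.8 and 11.5 CPM in control (-4.10 ± 0.23, adjusted p = 4.01e-06) and from 178, 167 and 198 CPM to 19.0 and 11.4 CPM in cKO cells (-3.57 ± 0.21, adjusted p = 4.95e-06). Etv4 overlapped between the iOL genotypes. Of 20 genes of the anaphase-promoting complex and cycle exit, 6 fell and 2 rose in control cells, where 25.3% of all genes fell and 21.0% rose. In cKO cells 5 of the 20 fell and 4 rose, where 21.8% of all genes fell and 18.5% rose. In cKO against control iOLs 3 of the 20 were higher, where 7.08% of all genes were. They were Btg2 (1.85 ± 0.37, adjusted p = 0.0141), Gas1 (1.52 ± 0.15, adjusted p = 0.00071) and Btg1 (0.69 ± 0.16, adjusted p = 0.0251), which are known as genes of growth arrest. The call of Gas1 held in every alternative, and those of Btg2 (14 of 17) and Btg1 (13 of 17) were lost without either control iOL library or without cKO iOL replicate 1.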

How the data were processed

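The authors deposited a table of raw counts of reads per gene for the 9 RNA libraries. Per the submitters' processing notes, cutadapt 1.14, STAR 2.6.0 and featureCounts of Subread 1.6.2 were used, with the mm10 genome. Per the labels, libraries were made with a stranded polyA kit or, for small amounts of RNA, an amplifying kit, and which library had which is not stated. Every gene of the table had at least 1 count in every library and 10 or more in at least 4, so genes at 0 in a library were not analysed here, and 1 repeated header line was left out. The 4 chromatin samples were not analysed here.

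Counts were fitted in R 4.3.3 with edgeR 4.0.16 (quasi-likelihood test, TMM factors, filterByExpr with a minimum count of 10, 4 group means, 5 residual degrees of freedom, common dispersion 0.0265), and p-values were adjusted by Benjamini-Hochberg over 13549 genes and called under 0.05. Log2 CPM used a prior count of 2. Standard errors were derived from each test, dividing the absolute fold change (log2) by the root of F. DESeq2 1.42.0 was an alternative, and the code was tested on simulated data. Intervals of promoter shares are exact binomial at 95% and cover counting error only. The genes, their roles, the other lists and the alternatives were chosen with earlier results of these data known. Values in every library are given for the 3 genes of highest mean CPM in each role, for every called gene where at most 6 were called, otherwise the 3 of largest fold change each way, and for the 3 of smallest p where 0 were called. From other lists, up to 4 called genes per comparison may be named.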

Additional observations from a re-analysis of the deposited data

Results flagged for a closer look

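Of 192 listed genes of the cycle and the mitogen response outside the 54, 5 (2.6%, against 1.83% of all genes) changed on differentiation by an amount that differed between the genotypes (log2 fold change of iOLs over OPCs in Eed cKO minus control, edgeR adjusted p under 0.05). Gas1, of growth arrest, differed by 1.59 ± 0.20 (adjusted p = 0.0109), with 12.8 and 15.4 CPM in control and 44.1 and 37.1 CPM in cKO iOLs after similar OPC levels of 56.6 and 55.0 CPM and 53.4, 49.1 and 56.6 CPM. Mycn differed by 1.20 ± 0.24 (adjusted p = 0.0468), and Ccnd1, cyclin D1, by 1.03 ± 0.18 (adjusted p = 0.0327). Gas1 and Ccnd1 fell less in cKO cells, and Mycn fell in control cells (-1.07 ± 0.18) and did not pass in cKO cells (0.13 ± 0.16, adjusted p = 0.559). Cdkn1a, the inhibitor p21, differed by -1.96 ± 0.37 (adjusted p = 0.0368), and Ccng1, cyclin G1, by -1.09 ± 0.23 (adjusted p = 0.0496). Both rose in control and in cKO cells, from a higher OPC level in the cKO: Ccng1 measured 34.0 and 40.2 CPM in control and 76.7, 86.7 and 87.1 CPM in cKO OPCs, then 161 and 220.3 CPM in control and 187 and 215 CPM in cKO iOLs. Of 16 alternatives, the call held in 13 for Gas1, 10 for Ccnd1, 9 for Cdkn1a, 8 for Mycn and 7 for Ccng1, and each was lost without either control iOL library or without cKO iOL replicate 1. The adjusted p ranged up to 0.0732 for Gas1, 0.173 for Ccnd1, 0.181 for Cdkn1a, 0.204 for Mycn and 0.226 for Ccng1.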

How the results depend on the processing

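The falls on differentiation kept their direction and most of their calls. Leaving out each library in turn gave 47 to 53 called genes of the 54 in control cells and 32 to 48 in cKO cells, against 50 and 48, and 46 of 50 and 32 of 48 were called in every alternative. No called gene changed sign. The other counts depended on the setting. Leaving out each library gave 0 to 11 genes in cKO against control iOLs, against 6, and 0 to 9 in cKO against control OPCs and 0 to 18 for the difference of falls, against 0. In cKO against control iOLs DESeq2 called 10 (13.6% of all genes called in either direction), a fit with postnatal day as a term 14 (19.8%), the 6 libraries of day 6 alone 27 (27.5%) and a fit of the 2 groups alone 22 (27.3%). For the difference of falls DESeq2 called 3 (6.07%) and a fit with postnatal day as a term 8 (8.87%). The low count filter removed no gene, so leaving it out changed nothing, and RLE size factors or a minimum of 1 CPM in 4 libraries moved each count by at most 1. The causes of these shifts were not tested, except that leaving out a library of a pair leaves a lone sample that is assumed to vary like the other groups.

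The replicate number as a block called 1 gene in cKO against control OPCs (14.3% of all genes) and 5 for the difference of falls (7.74%), and moved the other counts by at most 1. The labels do not say that the numbers pair the libraries. Deviations from group means of same-numbered libraries correlated across genes at 0.31 (both of day 7) and -0.35 (control of day 6, cKO of day 7) between OPC genotypes. The value was 0.24 in iOLs, and libraries of the same postnatal day correlated in OPCs. In a group of 2 libraries the deviations mirror each other, so these values cannot decide whether the numbers mark pairs. The shift of S-phase against mitotic level on differentiation was 0.206 in control and 0.199 in cKO cells with the median over genes. Leaving out each library, an alternative chosen after seeing the data, kept its sign. With a further T before the E2F core, 32% of S-phase and 5% of mitotic promoters held a match. The precision is limited by 2 or 3 libraries a group: the standard errors of the 6 called genes ran from 0.13 to 0.18.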
